A study of Physcomitrium patens with 4 samples.

Results

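Protoplasts of the moss Physcomitrella patens that are returned to culture rebuild a wall, take on a polar shape, and then divide to found a new filament. The comparison described here covers the last step of that series, from cells cultured for 48 h (t-48 cells) to cells cultured for 72 h (t-72 cells). All genes with at least 10 tags in these 2 libraries together were compared, which kept 12648 of the 18800 genes in the files. The remaining 6152 genes had too few tags. The series holds 4 libraries made by digital gene expression profiling (DGEP), 1 each from fresh protoplasts (t-0) and from cultures of 24, 48 and 72 h. All came from protonemata of a wild-type Gransden strain, whose walls were digested with Driselase. The t-48 and t-72 cells grew in the same liquid medium with mannitol and ammonium tartrate and no added hormone, in the dark for the first 24 h and under a daily light and dark cycle from then on. Neither light nor medium was therefore changed between them by design. By the study's account of cell shape, most t-48 cells were pear-shaped and had not yet divided, and most t-72 cells had divided. From the DNA content of nuclei, the study infers that t-48 cells had already re-entered the cell cycle, and it describes t-72 cells as similar. The samples of a time point were pooled for RNA isolation into 1 library, so the spread between cultures was not measured, no p-value is given, and the age of a culture and the preparation of its library cannot be told apart.

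Protonemata are the branching filaments of young moss plants. They consist of chloronema cells, which are rich in large chloroplasts, and of caulonema cells, which extend faster and hold fewer chloroplasts. Entry into division in plants depends on cyclins and cyclin-dependent kinases (CDKs): D-type cyclins act at the start of the cycle, A-type cyclins from DNA replication onwards, and B-type cyclins together with the plant-specific B-type CDKs towards mitosis. Growth between divisions draws on photosynthesis, ribosomes and loosening of the wall by expansins. These processes are therefore the main groups of genes followed below.

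A DGEP tag is a short stretch beside a CATG site of a transcript, and its count was taken as the abundance of the gene. Library sizes were scaled with TMM, a trimmed mean of the log ratios between libraries, and levels are given as tags per 1000000 scaled library tags (CPM). A gene was called higher or lower when its scaled count differed at least 4-fold with at least 100 tags in the higher library. Each fold is followed by the 95% interval that counting alone gives, and where a library held 0 tags the fold is a lower bound computed with 3 tags in its place. Genes are ranked by the interval end nearest to 1, or by that bound. Gene symbols are those of the best Arabidopsis match, so that several moss genes can carry the same symbol, and the roles stated are those known from Arabidopsis or from plants in general. In RNA from whole cultures, fewer cells of one kind and less RNA per cell cannot be told apart.

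The t-48 library held 1964182 gene tags and the t-72 library 2445814. Tags were seen for 13920 genes at 48 h and for 14340 at 72 h. The t-72 library was dominated by fewer genes. Its 10 most abundant genes took 24.2% of all gene tags, against 7.90% in the t-48 library, 7.80% at 24 h and 4.39% in fresh protoplasts. The first 50% of the tags was held by 441 genes at 48 h and by 198 genes at 72 h. Only 2 of the 10 most abundant genes and 25 of the 100 most abundant genes were the same in both libraries. The t-72 library also lost a far larger part of its raw tags to adaptor sequence than the other libraries before the counts were made. The part of this loss in the results was not tested.

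At 72 h, 969 genes exceeded their level at 48 h by the call rule, and 901 genes lay below it. This is 7.66% and 7.12% of the genes tested, and each list below is read against these 2 shares. Of the genes tested, 4534 had 100 tags or more in either library, as a call requires. The share called in a list therefore also depends on how abundant its members are. The median log2 change over all genes tested was 0.01, and 4729 genes changed by less than 2-fold. When the total of gene tags replaced TMM, the median moved to -0.38, with 783 genes called higher and 1118 lower, so that 41.2% of the calls were higher in place of 51.8%. Values below are relative to the TMM scale, on which the median gene is near 0. Called genes carried much of the RNA. Those called higher rose from 4.72% to 49.95% of all tags, and those called lower fell from 33.8% to 2.90%. The genes were chosen by their change between the same 2 libraries, so a large shift follows from the choice and is given as a description. The median fold among the calls was 9.75 for the higher genes and 8.19 for the lower ones.

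**Figure D1:**
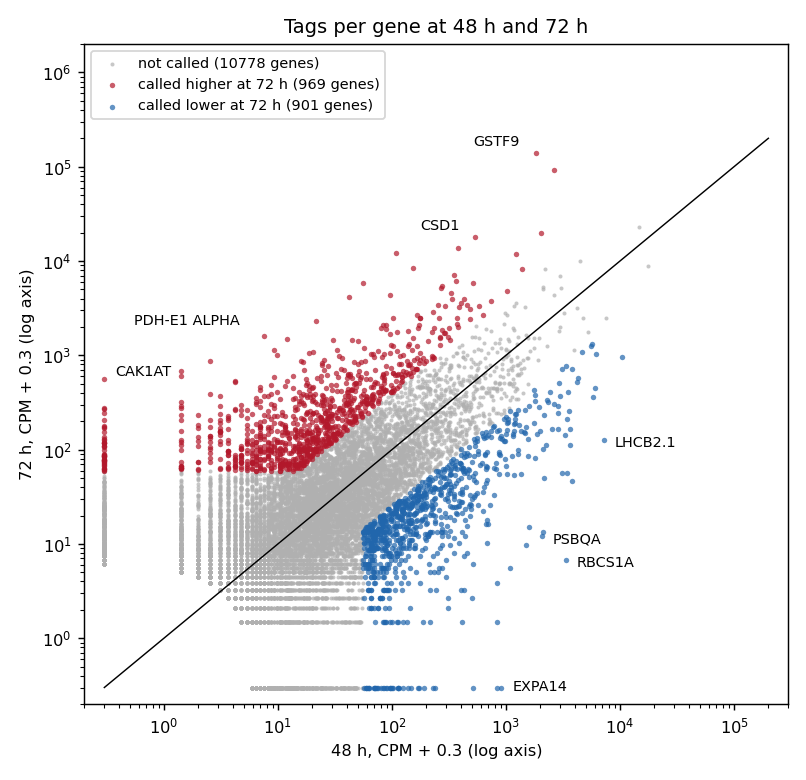
CPM of the 12648 genes tested, at 48 h on the x axis and at 72 h on the y axis, both on log axes with 0.3 added so that genes with no tag can be drawn. Red points are the 969 genes called higher at 72 h, blue points the 901 called lower and grey points the rest, and the line marks equal levels. GSTF9 stands at the top of the plot, while RBCS1A, PSBQA and EXPA14 stand far below the line.

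The name of this step, the division of the cells, was checked first against a list of cell cycle, histone and DNA replication genes. Of this list, 5 of 103 tested members were called higher and 0 lower, with a median log2 change of -0.26. The list took 0.22% and 0.194% of the tags of the t-48 and t-72 libraries, so that most of its members were counted below the minimum of 100 tags. The strongest called rise in the list was that of Pp1s147_86V6, a gene without a symbol whose Arabidopsis match is described only as cyclin-like. It is not one of the A-type, B-type or D-type cyclins followed below. It had 96 tags at 48 h and 1008 at 72 h, a rise of 11.1-fold (9.0 to 13.8). RPA70C (Pp1s222_133V6), a subunit of the protein that coats single-stranded DNA, rose from 33 to 219 tags, or 7.02-fold (4.85 to 10.4). HTA9 (Pp1s219_44V6), a histone H2A of the H2A.Z type, rose from 30 to 167 tags, or 5.88-fold (3.97 to 8.99).

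The core regulators of mitosis had fewer tags at 72 h. They were picked out after their values were seen, and none reached the minimum for a call. All 10 tested genes for A-type cyclins, B-type cyclins and B-type CDKs were lower at 72 h, where they summed to 36 tags, than at 48 h, where they summed to 465. CDKB1;1, a kinase specific to dividing plant cells, was represented by Pp1s127_92V6 with 87 tags at 48 h and 0 at 72 h (at least 27.4-fold lower) and by Pp1s214_1V6 with 36 tags at 48 h and 0 at 72 h. Of 4 CYCA1;1 genes, Pp1s642_3V6 had 73 tags at 48 h and 0 at 72 h (at least 23-fold lower), while Pp1s68_164V6 kept 25 of 87 tags and was 3.29-fold (2.09 to 5.36) lower. CYCB2;4 stood at 44 and 0 tags for Pp1s271_10V6 and at 27 and 2 tags for Pp1s89_130V6. The levels at 48 h were also above those of the earlier libraries. Pp1s127_92V6 had 24 tags in fresh protoplasts and 3 at 24 h, Pp1s642_3V6 had 7 and 0, and all 10 genes had their highest CPM at 48 h.

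The D-type cyclin CYCD1;1 (Pp1s359_22V6) had 88 tags at 48 h and 3 at 72 h, 27.7-fold (9.19 to 137) lower, but its second copy Pp1s24_216V6 had 2 and 13 tags. PCNA1, the sliding clamp of DNA polymerase, was 6.55-fold (3.72 to 12.4) lower for Pp1s46_194V6 (97 and 14 tags), whereas Pp1s227_112V6 had 62 and 63 tags, an interval that includes no change. Other CDKs differed among themselves. Both CDKD1;3 genes, whose products activate further CDKs, had fewer tags at 72 h (18 and 5 tags for Pp1s150_11V6, 14 and 0 tags for Pp1s30_226V6), while both CDKC;1 genes and both CDKE;1 genes, which act with the transcription machinery, had more. CKS2 (Pp1s36_271V6), a small partner of CDKs, had 341 tags at 48 h and 199 at 72 h and was 1.62-fold (1.36 to 1.94) lower, short of the call. By contrast CAK1AT (Pp1s121_167V6), a kinase that activates CDKs, was among the largest rises of all genes. It was not caught by the words that drew the cell cycle list, so the counts of that list leave it out. It had 55, 48, 0 and 942 tags at 0, 24, 48 and 72 h, and the last step was at least 332-fold. The A-type and B-type cyclins and the B-type CDKs had more tags in the t-48 library, but they were picked after their values were seen and not called. The called members of the cell cycle list, 5 of 103 tested, were all higher at 72 h. Of 23 tested replication fork proteins, also split out after the values were seen, 14 lay above 0 and 9 below. These genes do not settle at which time more cells divided, so the step is called by its times below.

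**Figure D2:**
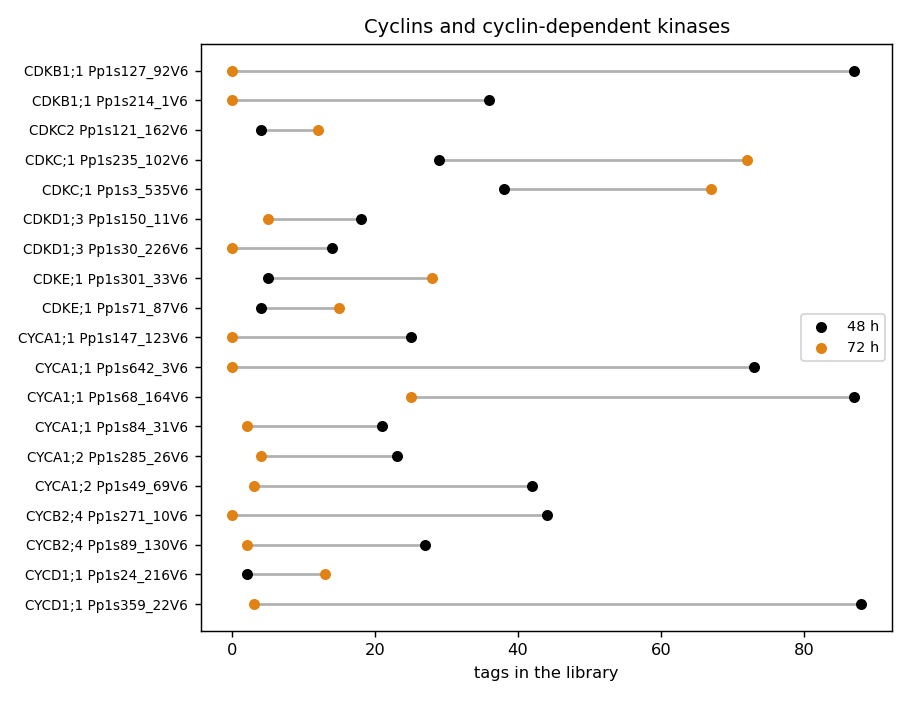
Tags of the tested A-type, B-type and D-type cyclins and of the tested CDKs of classes B to E, with black points for the 48 h library and orange points for the 72 h library and a line that joins the points of a gene. All 10 genes of the CYCA, CYCB and CDKB types have their orange point to the left, at 0 to 25 tags, as do both CDKD genes, while the CDKC and CDKE genes have it to the right.

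The tissue was checked with markers of both filament types. Antenna genes, taken as a marker of green chloronema cells, took 1.32%, 0.462%, 6.14% and 1.33% of the tags at 0, 24, 48 and 72 h. The Calvin cycle list took 1.0%, 0.375%, 2.41% and 0.351%. The study describes the source protonemata as mainly chloronema, yet both shares in fresh protoplasts lay well below those at 48 h. These 2 lists therefore do not settle the filament type. The list of caulonema and rhizoid regulators took 0.0266% and 0.0314% of the tags at 48 and 72 h. Of these, 1 of 10 tested members was called higher and 0 lower. The called gene was RHL2 (Pp1s62_130V6), a topoisomerase subunit, with 22 and 121 tags (5.81-fold, 3.67 to 9.62). The same gene is among the called rises of the cell cycle list, so both checks count it. RSL2, described in Arabidopsis as ROOT HAIR DEFECTIVE 6-LIKE 2, was represented by Pp1s147_136V6 with 216 and 302 tags and by Pp1s84_14V6 with 0 and 36 tags. Neither was called. Other members had fewer tags at 72 h. LRL1, a factor of root hair growth in Arabidopsis, had 72 and 10 tags for Pp1s173_83V6 (6.81-fold lower, 3.50 to 14.8) and 75 and 42 tags for Pp1s282_80V6, but 27 and 98 tags for Pp1s93_114V6 and 52 and 84 tags for Pp1s209_22V6. RHD4, a phosphoinositide phosphatase, had 10 tags at 48 h and none at 72 h.

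Genes of the photosynthetic apparatus made up much of the fall. Light-harvesting proteins bind chlorophyll and pass excitation energy to the photosystems. Of this antenna list, 1 of 43 tested members was called higher and 16 lower. The list took 6.14% (6.11 to 6.18) of all gene tags at 48 h and 1.33% (1.32 to 1.35) at 72 h, and its median log2 change was -1.70. LHCB2.1 (Pp1s19_13V6) had 12877 tags at 48 h and 214 at 72 h, 56.9-fold (49.7 to 65.5) lower. A further LHCB2.1 gene, Pp1s182_81V6, fell 15.4-fold (13.7 to 17.5), and LHCB4.2 (Pp1s155_36V6) fell 13-fold (10.7 to 16). LHCB3 (Pp1s254_3V6), a further subunit of the main antenna, had 18668 and 1630 tags, a fall of 10.8-fold (10.3 to 11.4). The most abundant antenna gene, LHCB2.2 (Pp1s213_80V6), had 31399 tags at 48 h and 15146 at 72 h and was only 1.96-fold (1.92 to 2.0) lower. It was the only antenna gene among the 10 most abundant genes of both libraries. A different LHCB2.2 gene, Pp1s23_96V6, was the 1 antenna member called higher, with 232 and 1056 tags (4.81-fold, 4.17 to 5.57), and with the total of gene tags as the scale its call was lost at a log2 change of 1.87.

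The photosystem and electron carrier list held 6.51% (6.47 to 6.54) of all gene tags at 48 h and 0.969% (0.957 to 0.981) at 72 h. Of these, 2 of 108 tested members were called higher and 40 lower. PSBQA (Pp1s1_461V6), part of the oxygen-evolving complex, dropped from 3706 to 20 tags, or 175-fold (113 to 287). PSAF (Pp1s19_276V6), the plastocyanin docking subunit of photosystem I, dropped from 2691 to 16, or 159-fold (97.8 to 279). PSAO (Pp1s248_61V6) went from 263 to 0 tags, at least 82.9-fold lower. Subunits of both photosystems were affected. When split by symbol after the values were seen, 15 of 24 photosystem I genes and 12 of 31 photosystem II genes were called lower and none higher. PSAH2 (Pp1s206_11V6) and PSBX (Pp1s116_110V6), both among the 10 most abundant genes at 48 h, fell 13.2-fold (12.3 to 14.2) and 16.3-fold (15 to 17.7). The 2 members called higher were NDF6 (Pp1s127_94V6), a subunit of the chloroplast NDH complex of cyclic electron flow (12 and 294 tags), and PETB (Pp1s27_267V6), with 19 and 134 tags.

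In the Calvin cycle, which fixes CO2, 1 of 56 tested members was called higher and 25 lower, and the median log2 change was -2.51, the lowest of the 39 lists. The list took 2.41% (2.39 to 2.43) of all gene tags at 48 h and 0.351% (0.343 to 0.358) at 72 h. The small subunit of Rubisco accounted for the largest falls. RBCS1A (Pp1s109_145V6) had 5998 tags at 48 h and 11 at 72 h, 516-fold (288 to 1034) lower, and the RBCS1A gene Pp1s66_48V6 had 1496 and 2 tags. The small-subunit gene Pp1s352_14V6 had 1934 and 9 tags (203-fold, 107 to 445). Together the 14 small-subunit genes in the files dropped from 16950 to 245 tags. Tags shared by several genes were removed before deposition, so the sums of such families are incomplete. The exception in the list was triosephosphate isomerase, TIM (Pp1s38_15V6), which also serves glycolysis. It rose from 32 to 865 tags, or 28.6-fold (20.1 to 42). Another of the 5 tested genes with the TIM match was called lower.

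Linked plastid pathways were also lower in part. For photorespiration and carbonic anhydrases, 2 of 27 tested members were called higher and 8 lower. PGLP1 (Pp1s34_237V6), which removes the phosphate from the first product of photorespiration, fell from 722 to 5 tags, or 137-fold (58.3 to 422). The carbonic anhydrase CA2 (Pp1s43_118V6) fell from 6589 to 283, or 22-fold (19.6 to 24.9). Both called rises were alanine:glyoxylate aminotransferases (AGT), peroxisomal enzymes of the same cycle, with 817 and 5748 tags for Pp1s19_25V6 (7.44-fold, 6.91 to 8.01) and 469 and 2206 tags for Pp1s369_6V6 (4.97-fold, 4.50 to 5.51). The call of Pp1s369_6V6 was lost with the total of gene tags as the scale, at a log2 change of 1.92. For chlorophyll and carotenoid synthesis, 2 of 47 tested members were called higher and 13 lower. HEME2 (Pp1s114_123V6), of the tetrapyrrole branch, fell 41.7-fold (28.5 to 63.6), and the phytoene synthase PSY (Pp1s196_120V6), the entry enzyme of carotenoid synthesis, fell 20.6-fold (13.4 to 33.2). HEMG2 (Pp1s45_76V6) rose 8.94-fold (5.94 to 14). It makes protoporphyrin, the step before the routes to haem and chlorophyll part.

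**Figure D3:**
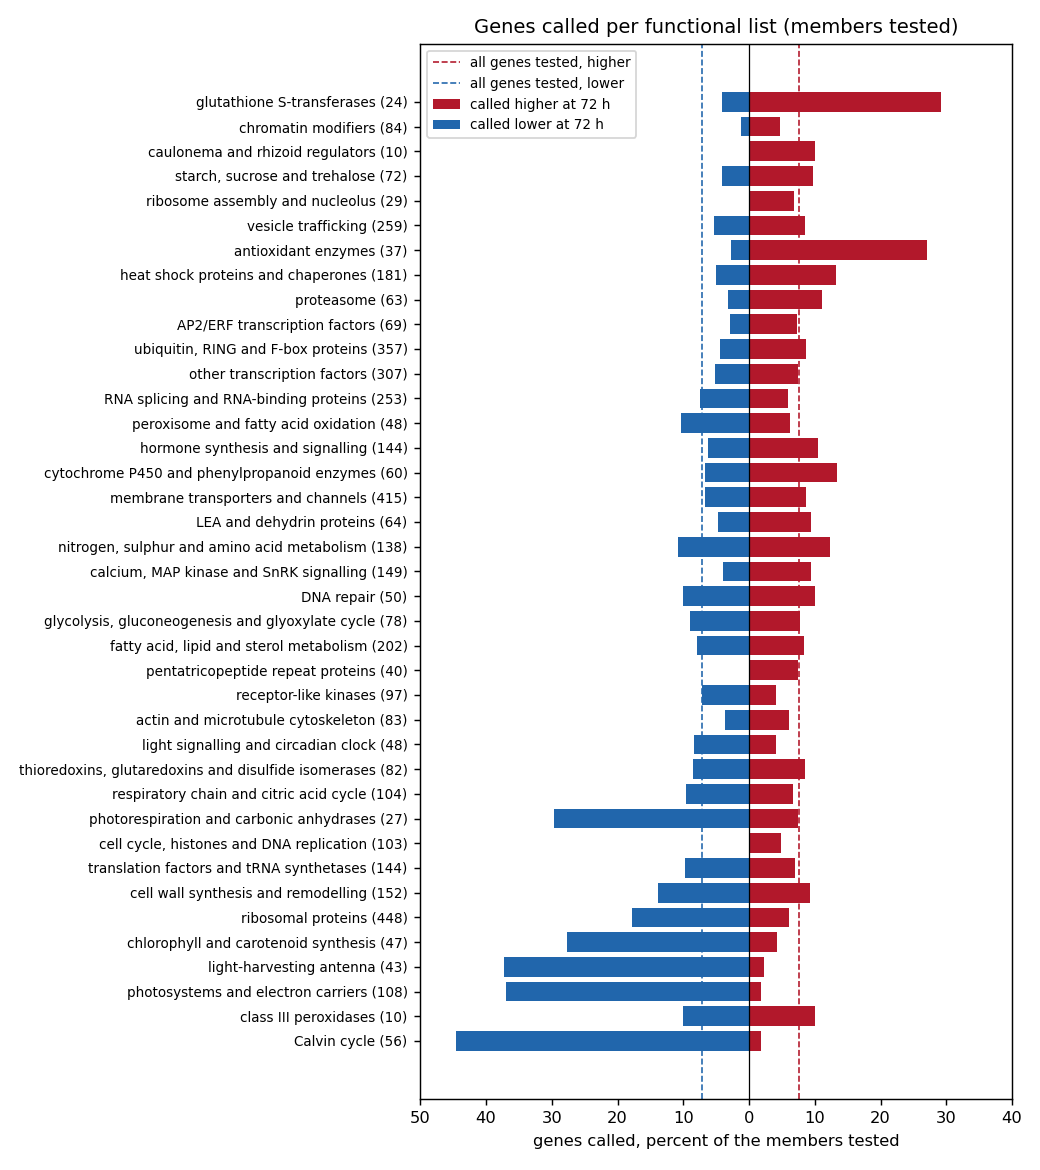
Percent of the tested members of each of the 39 lists that were called higher (red, to the right) or lower (blue, to the left) at 72 h, with the number tested after each name and the lists ordered by their median log2 change. Dashed lines mark the shares over all genes tested, 7.66% higher and 7.12% lower. The Calvin cycle, photosystem and antenna lists reach 37.0% to 44.6% on the blue side, and the glutathione S-transferase and antioxidant lists reach 29.2% and 27.0% on the red side.

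In 6 of the 39 lists, the 5 plastid lists above and the ribosomal proteins, the share called lower was more than 2 times that of all genes, and in 2 lists, the glutathione S-transferases and the antioxidant enzymes, this held for the share called higher. In the other 31 lists neither share went that far, and their counts are given as a description. The shares were not adjusted for the tag minimum, which favours calls in lists of abundant genes, such as the ribosomal proteins, over lists counted low.

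Ribosomal proteins took 16% (15.9 to 16.05) of all gene tags at 48 h and 9.41% (9.37 to 9.44) at 72 h. Of this large list, 27 of 448 tested members were called higher and 80 lower, and the median log2 change was -0.68. Of the 10 most abundant genes at 48 h, Pp1s400_20V6 (L18e/L15 family), Pp1s152_152V6 (60S acidic family) and UBQ6 (Pp1s184_64V6), which encodes ubiquitin fused to a ribosomal protein, fell 5.95-fold (5.65 to 6.26), 4.49-fold (4.28 to 4.71) and 4.30-fold (4.11 to 4.51). The falls ranked highest were those of a PSRP-3/Ycf65 gene of the plastid ribosome, Pp1s242_42V6, from 761 to 5 tags (144-fold, 61.4 to 445), and of an L29 family gene, Pp1s89_23V6, from 555 to 3 tags (175-fold, 59.6 to 851). The L40e fusion gene Pp1s284_11V6 went from 152 to 0. Rises were found in the same list. An L10 family gene, Pp1s38_196V6, was among the 10 most abundant genes at 72 h with 8029 tags at 48 h and 16789 at 72 h, though its 2.21-fold (2.15 to 2.27) difference was below the call. A zinc-binding ribosomal protein gene, Pp1s14_193V6, had 0 and 201 tags, at least 70.8-fold higher.

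Of the ribosome assembly and nucleolus list, 2 of 29 tested members were called higher and 0 lower, with 1 called lower on the total of gene tags or on clean tags, and the median log2 change was 0.50. A nucleolar GTP-binding protein gene, Pp1s49_47V6, had 2 and 268 tags (142-fold, 38.8 to 1176), and a NOP56-like gene of pre-rRNA processing, Pp1s11_243V6, had 63 and 710 tags (11.9-fold, 9.20 to 15.7). Of the translation factors and tRNA synthetases, 10 of 144 tested members were called higher and 14 lower. EIF4A1 (Pp1s136_29V6), the helicase that opens the mRNA for the ribosome, rose from 14 to 436 tags, or 32.9-fold (19.4 to 60.7). The gene with the symbol EIF2 (Pp1s31_343V6), described as a translation initiation factor, rose from 9 to 277, or 32.5-fold (16.9 to 71.9). A gene of the family that joins elongation factor EF1B and ribosomal protein S6, Pp1s24_129V6, fell from 1124 to 37, or 28.7-fold (20.7 to 41).

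**Figure D4:**
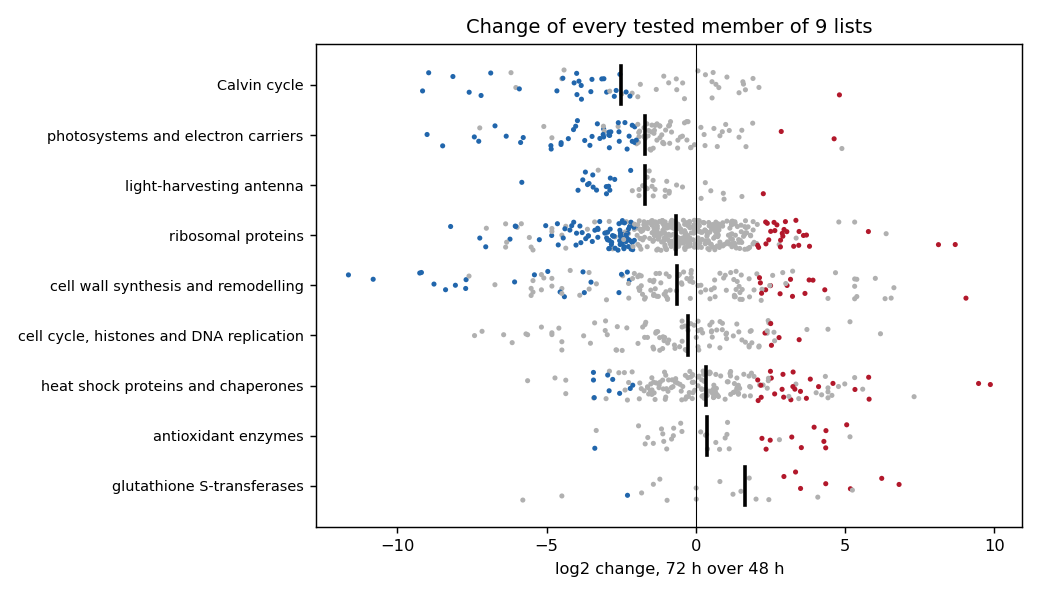
Log2 change from 48 h to 72 h of every tested member of 9 lists, one point a gene, with red for genes called higher, blue for genes called lower, grey for the rest and a black bar at the list median. The medians run from -2.51 in the Calvin cycle to 1.65 in the glutathione S-transferases, and every list shown has points on both sides of 0.

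Among the lists, the largest gain in tags was that of the glutathione S-transferases, which join glutathione to reactive or toxic compounds. The list took 0.675% (0.664 to 0.687) of all gene tags at 48 h and 12.4% (12.3 to 12.4) at 72 h. Of this list, 7 of 24 tested members were called higher and 1 lower, with a median log2 change of 1.65. A single gene carried most of it. GSTF9 (Pp1s66_172V6) had 3319 tags at 48 h and 236061 at 72 h, a 75.2-fold (72.7 to 77.8) rise, and was the most abundant gene at 72 h with 9.65% of all gene tags. GSTF10 (Pp1s75_107V6) had 194 tags at 48 h and 20690 at 72 h (113-fold, 97.9 to 131), and the family member Pp1s126_26V6 had 675 tags at 48 h and 23218 at 72 h (36.4-fold, 33.7 to 39.3). GSTT1 (Pp1s231_10V6) was the only member called lower, with 100 and 19 tags. The 3 rising genes named here had also been higher in fresh protoplasts than at 48 h, and GSTF9 stood at 9858, 2143, 1849.7 and 139069.6 CPM at 0, 24, 48 and 72 h.

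Of the antioxidant enzymes, 10 of 37 tested members were called higher and 1 lower, and the list took 0.499% and 2.21% of the tags of t-48 and t-72 cells. CSD1 (Pp1s44_277V6), the cytosolic superoxide dismutase that turns superoxide into peroxide, had 956 tags at 48 h and 30142 at 72 h, or 33.3-fold (31.3 to 35.6). GPX6 (Pp1s98_2V6), which reduces peroxides, had 494 tags at 48 h and 9175 at 72 h (19.6-fold, 17.9 to 21.5). GR1 (Pp1s116_56V6), which restores reduced glutathione, had 57 tags at 48 h and 1113 at 72 h (20.6-fold, 15.8 to 27.4). The only called fall was that of APX4 (Pp1s30_255V6), a thylakoid-lumen protein related to ascorbate peroxidase, from 633 to 57 tags (10.5-fold, 8.0 to 14), while 15 of the 37 genes lay below 0. With the total of gene tags as the scale, 8 members were called higher and 4 lower. Among thioredoxins, glutaredoxins and disulfide isomerases, 7 of 82 tested members were called higher and 7 lower. The glutaredoxin gene Pp1s185_2V6 rose from 142 to 3327 tags, or 24.8-fold (20.9 to 29.5). ATHM2 (Pp1s106_68V6), an m-type thioredoxin of the chloroplast, fell from 358 to 41, or 8.26-fold (5.97 to 11.7). Of the class III peroxidases 10 genes could be tested. Of these 7 lay below 0 and 3 above, with a median log2 change of -1.75, and 1 was called higher (Pp1s37_275V6, 7 and 456 tags) and 1 lower (Pp1s433_15V6, 180 and 2 tags).

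Heat shock proteins and chaperones, which fold proteins or hold them in solution, rose more often than they fell. Of the list, 24 of 181 tested members were called higher and 9 lower, with a median log2 change of 0.35 that became -0.04 with the total of gene tags as the scale. HSP90.1 (Pp1s291_62V6) had 642, 80, 0 and 455 tags at 0, 24, 48 and 72 h, at least 160.3-fold higher in the last library than in the one before. The small heat shock protein gene Pp1s350_28V6 had 0 and 346 tags (at least 122-fold). The chloroplast HSP70 gene CPHSC70-2 (Pp1s115_168V6) had 11 and 604 tags (58-fold, 32.2 to 117). Split by symbol after the values were seen, all 7 tested HSP90 family genes had more tags at 72 h and 4 of them were called. Falls were found for HSC70-1 (Pp1s97_279V6, 10.6-fold, 8.72 to 13) and for CPN60A (Pp1s114_95V6, 10.9-fold, 8.08 to 14.9), the chaperonin that assists Rubisco assembly. Of the 5 tested genes with the HSC70-1 match, 1 was called higher and 1, the gene named here, lower.

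In the proteasome, which degrades proteins tagged with ubiquitin, 7 of 63 tested members were called higher and 2 lower. The rises lay mostly in the cap that receives the substrates. Of its 21 tested genes 6 were called higher and none lower, against 1 higher and 1 lower of 27 core genes, a split made after the values were seen and not tested. EMB2107 (Pp1s257_89V6), an RPN subunit of the cap, had 37 and 540 tags (15.4-fold, 11.1 to 22.2), and the ATPase RPT3 (Pp1s243_67V6) had 12 and 168 tags (14.8-fold, 8.25 to 29.2). The core gene PBC1 (Pp1s130_217V6) fell from 420 to 50 tags, or 7.95-fold (5.92 to 10.9). Among ubiquitin, RING and F-box proteins, 31 of 357 tested members were called higher and 16 lower. An F-box gene, Pp1s44_338V6, had 0 and 299 tags (at least 105-fold higher). The ubiquitin-conjugating enzyme gene UBC19 (Pp1s177_14V6), whose Arabidopsis relative is tied to cyclin degradation in mitosis, had 206 and 0 tags (at least 65-fold lower).

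Central carbon metabolism showed rises and falls side by side. For the respiratory chain and citric acid cycle, 7 of 104 tested members were called higher and 10 lower. Among the 10 largest rises of all genes was that of PDH-E1 ALPHA (Pp1s199_145V6), the plastid-type alpha subunit of pyruvate dehydrogenase that supplies acetyl-CoA. It had 11, 2, 13 and 2729 tags at 0, 24, 48 and 72 h, and the last step was a 222-fold (129.6 to 417) rise. A second gene with the same match, Pp1s318_24V6, went from 316 to 12 tags, 24.9-fold (14.1 to 48.7) lower. The mitochondrial malate dehydrogenase mMDH1 (Pp1s201_6V6) rose 19.1-fold (13.1 to 28.8), a malate dehydrogenase family gene, Pp1s65_267V6, fell 81-fold (27.4 to 396), and the complex I subunit gene Pp1s9_379V6 rose from 77 to 1030 tags. EMB1467 (Pp1s170_67V6), a further complex I subunit, had 1271 and 713 tags and was 1.69-fold (1.54 to 1.85) lower, short of the call. LPD1 (Pp1s352_68V6), the plastid dihydrolipoamide dehydrogenase of the same complex as PDH-E1 ALPHA, fell from 282 to 64 tags, or 4.17-fold (3.17 to 5.56), with an interval that reaches below 4-fold. Another of the 3 tested genes with the LPD1 match was called higher.

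For glycolysis, gluconeogenesis and the glyoxylate cycle, 6 of 78 tested members were called higher and 7 lower. PCK1, which makes phosphoenolpyruvate from oxaloacetate in gluconeogenesis, had 3 tested copies, of which 2 were called higher and 1 lower. Pp1s133_10V6 had 182 tags at 48 h and 4233 at 72 h (24.6-fold, 21.2 to 28.7) and Pp1s1_815V6 had 17 and 267 tags (16.6-fold, 10.2 to 28.9). The plastid pyruvate kinase PKP-BETA1 (Pp1s205_25V6) had 294 and 4510 tags (16.2-fold, 14.4 to 18.3). Both named phosphoglucomutases, which link glucose 6-phosphate to starch and sucrose, fell, PGM2 (Pp1s4_12V6) by 16.7-fold (12.6 to 22.4) and PGM (Pp1s199_101V6) by 18.1-fold (10.8 to 32.8). In starch, sucrose and trehalose metabolism, 7 of 72 tested members were called higher and 3 lower. DPE1 (Pp1s44_268V6), which rearranges the glucans left by starch breakdown, rose from 484 to 8824 tags, or 19.3-fold (17.6 to 21.2). AMY2 (Pp1s526_11V6), an alpha-amylase, rose from 5 to 196 and the related AMY1 (Pp1s223_59V6) fell from 917 to 10 (86.7-fold, 47 to 182). ADG1 (Pp1s2_392V6), the small subunit of the enzyme that feeds starch synthesis, fell from 145 to 4 (34.3-fold, 13.1 to 128).

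Nitrogen, sulphur and amino acid genes were called in both directions. Of this list, 17 of 138 tested members were called higher and 15 lower. Falls included 2 enzymes of ammonium assimilation. GSR2 (Pp1s241_33V6), a glutamine synthetase, had 2783 tags at 48 h and 146 at 72 h (18-fold, 15.3 to 21.4), and GLU1 (Pp1s212_44V6), the ferredoxin-dependent glutamate synthase, had 1845 and 94 tags (18.6-fold, 15.1 to 23.1). Among the rises, ALDH5F1 (Pp1s111_161V6) and POP2 (Pp1s355_46V6) belong to the breakdown of 4-aminobutyrate (GABA). They had 54 and 2455 tags (48.1-fold, 36.7 to 64.2) and 2205 and 20139 tags (9.66-fold, 9.24 to 10.1). ALDH12A1 (Pp1s41_177V6), of proline breakdown, had 60 and 1005 tags (17.7-fold, 13.6 to 23.4). MEE58 (Pp1s20_229V6), which clears S-adenosylhomocysteine and so keeps methylation running, had 12 and 296 tags (26.1-fold, 14.7 to 51).

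In fatty acid, lipid and sterol metabolism, 17 of 202 tested members were called higher and 16 lower, against 15 and 22 with the total of gene tags. ACP1 (Pp1s69_154V6), the plastid carrier of growing acyl chains, fell from 6476 to 188 tags, or 32.6-fold (28.2 to 37.9). FAB1 (Pp1s159_47V6), a condensing enzyme of the same pathway, went from 0 to 148 (at least 52.2-fold higher). A GDSL-type lipase gene, Pp1s51_28V6, rose from 99 to 9904 tags, or 106-fold (86.8 to 130.2). FAD5 (Pp1s68_264V6), a desaturase, went from 113 to 0. For the peroxisome and fatty acid oxidation, 3 of 48 tested members were called higher and 5 lower. The beta-oxidation enzymes PKT3 (Pp1s55_275V6), a thiolase, and ACX3 (Pp1s37_122V6), an acyl-CoA oxidase, fell 54-fold (27.2 to 126) and 22.1-fold (13 to 40.9). PNC2 (Pp1s22_257V6), which carries ATP into peroxisomes, rose from 2 to 167 tags (88.3-fold, 24.1 to 735). The calls of PEX11D (Pp1s433_22V6, 4.22-fold, 3.58 to 5.0) and PEX14 (Pp1s314_33V6, 4.16-fold, 3.33 to 5.25), 2 proteins of peroxisome formation, were lost with the total of gene tags as the scale, at log2 changes of 1.68 and 1.66, and with clean tags at 1.82 and 1.80.

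Wall genes were called in both directions, and expansins made up much of the fall. Of the cell wall list, 14 of 152 tested members were called higher and 21 lower, with a median log2 change of -0.62. Of the 21 called lower, 9 were expansins, and no expansin was called higher. Expansins let wall polymers slide without cutting them. EXPA14 (Pp1s11_29V6) had 16, 4, 1636 and 0 tags at 0, 24, 48 and 72 h, at least 516-fold lower in the last step. EXPB3 was at 921 and 0 tags for Pp1s251_59V6 (at least 290.4-fold lower) and at 312 and 0 for Pp1s147_37V6. Split out after the values were seen, all 15 tested expansins had fewer tags at 72 h, 9 of them called, and the 22 expansins in the files summed to 7857 tags at 48 h and 152 at 72 h. Of 32 tested pectin enzymes 8 were called higher and 5 lower, and of 12 xyloglucan endotransglucosylases 1 and 2, again split after the values were seen. A pectin lyase-like gene, Pp1s18_221V6, went from 0 to 258 tags, and the polygalacturonase PG1 (Pp1s298_14V6) from 121 to 1750 (15.3-fold, 12.7 to 18.5). XTH9 (Pp1s309_36V6), which cuts and rejoins xyloglucan, went from 63 to 1203 (20.2-fold, 15.7 to 26.4).

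In the cytoskeleton list, 5 of 83 tested members were called higher and 3 lower. ACT7 (Pp1s337_21V6), an actin, rose from 135 to 1869 tags, or 14.6-fold (12.3 to 17.6). Tubulins were called in both directions, with TUA5 (Pp1s215_51V6) at 0 and 106 tags and TUB8 (Pp1s252_90V6) at 647 and 41 (14.9-fold lower, 10.9 to 21). ZWI (Pp1s364_50V6), a minus-end kinesin that binds calmodulin, rose 29.4-fold (16.6 to 57.5). For vesicle trafficking, 22 of 259 tested members were called higher and 14 lower, against 15 higher and 20 lower with the total of gene tags. SYP124 (Pp1s300_43V6), a plasma membrane syntaxin whose Arabidopsis relative serves tip growth of pollen tubes, had 537, 86, 4 and 1479 tags at 0, 24, 48 and 72 h (391-fold in the last step, 152 to 1436). ERMO2 (Pp1s358_10V6), a Sec24 coat protein of export from the endoplasmic reticulum, had 3 and 394 tags (139-fold, 47.2 to 676). The exocyst subunit gene SEC6 (Pp1s35_276V6) went from 123 to 0 and the dynamin-like DL3 (Pp1s426_19V6) from 201 to 2.

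Transcription factors were mostly counted low, and calls went both ways. Of the AP2/ERF family, 5 of 69 tested members were called higher and 2 lower, and of the other families, 23 of 307 tested members were called higher and 16 lower. An AP2/ERF gene without a symbol, Pp1s60_269V6, had 5 and 324 tags (68.5-fold, 29.1 to 212). STOP1 (Pp1s37_244V6), a zinc finger factor of acid and aluminium tolerance, rose from 29 to 1426 tags, or 52-fold (36 to 77.9). RGE1 (Pp1s1_263V6), a basic helix-loop-helix factor of the endosperm in Arabidopsis, went from 0 to 199. HRD (Pp1s249_80V6), of the AP2/ERF family, fell from 118 to 3 and bZIP7 (Pp1s147_89V6) from 875 to 56 (14.8-fold, 11.3 to 19.7). WOX13 (Pp1s224_106V6), whose moss relatives are needed for stem cell formation from cut leaves, had 281, 129, 18 and 4 tags at 0, 24, 48 and 72 h, too few for a call between the last 2 times.

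Clock and light genes included an opposite pair of clock components. LHY (Pp1s325_68V6), a morning factor, had 202 and 0 tags (at least 63.7-fold lower), while PRR7 (Pp1s412_35V6), a repressor of LHY in Arabidopsis, had 12 and 171 tags (15.1-fold higher, 8.40 to 29.7). CCR1 (Pp1s123_58V6), a glycine-rich RNA-binding protein under clock control, had 4 and 179 tags (47.3-fold higher, 18.2 to 176). PHYB (Pp1s164_65V6), a red light receptor, fell from 152 to 9, and ELIP1 (Pp1s371_45V6), which protects from excess light, from 1767 to 209 (8.0-fold, 6.93 to 9.28). In this list as a whole, 2 of 48 tested members were called higher and 4 lower. The hour of the day of each harvest was not given in the sources used here.

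For hormone synthesis and signalling, 15 of 144 tested members were called higher and 9 lower. The largest rises were those of a reductase and of an oxygenase gene. OPR2 (Pp1s9_107V6), a 12-oxophytodienoate reductase, had 2 and 545 tags (288-fold, 79.4 to 2385), and JRG21 (Pp1s103_129V6), an oxygenase gene regulated by jasmonate, had 4 and 659 tags (174-fold, 67.7 to 641). Of the 2 tested genes with the OPR2 match, the other was called lower. The abscisic acid receptor gene PYL11 (Pp1s105_38V6) had 645, 157, 3 and 284 tags at 0, 24, 48 and 72 h (100.1-fold in the last step, 33.9 to 488). DFL2 (Pp1s67_243V6), of the GH3 family that conjugates auxin and other hormones to amino acids, fell 34-fold (20.8 to 59.9), and CGA1 (Pp1s3_329V6), a GATA factor that promotes chloroplast development, fell 15.8-fold (8.09 to 35.2). Of LEA and dehydrin proteins, which protect drying cells, 6 of 64 tested members were called higher and 3 lower, against 4 higher and 8 lower with the total of gene tags as the scale. COR413-PM2 (Pp1s47_88V6), a cold-regulated membrane protein, rose from 668 to 4189 tags (6.63-fold, 6.11 to 7.20), and a LEA family gene, Pp1s234_91V6, fell from 563 to 63 (8.45-fold, 6.51 to 11.2).

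Among receptor-like kinases, 4 of 97 tested members were called higher and 7 lower. The leucine-rich repeat kinase gene Pp1s281_115V6 had 2 and 397 tags (209.8-fold higher, 57.7 to 1739), and Pp1s57_133V6 of the same class had 337 and 2 tags (159-fold lower, 43.8 to 1322). In calcium, MAP kinase and SnRK signalling, 14 of 149 tested members were called higher and 6 lower. CPK2 (Pp1s205_14V6), a calcium-dependent protein kinase, rose from 35 to 758 tags, or 22.9-fold (16.3 to 33.1). Of membrane transporters and channels, 36 of 415 tested members were called higher and 28 lower. PEN3 (Pp1s15_137V6), an ABC exporter of defence compounds, had 7 and 916 tags (138-fold, 66.9 to 345), and SULTR1;1 (Pp1s2_677V6), a sulphate importer, had 5 and 625 tags (132-fold, 56.3 to 408). PHT2;1 (Pp1s4_440V6), the phosphate carrier of the chloroplast envelope, went from 128 to 0 tags. A vacuolar iron transporter gene, Pp1s44_232V6, went from 775 to 12 (61.1-fold, 34.8 to 119). TOM3 (Pp1s237_67V6), a tonoplast protein known as a host factor of tobamoviruses, rose from 172 to 2874 (17.7-fold, 15.1 to 20.7).

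Of splicing and RNA-binding proteins, 15 of 253 tested members were called higher and 19 lower. An SRP72 gene of the signal recognition particle, Pp1s234_73V6, rose 32.5-fold (22.8 to 48.2), and emb1138 (Pp1s7_15V6), the chloroplast RNA helicase RH3, fell from 488 to 9 tags (51.3-fold, 26.8 to 113). Of pentatricopeptide repeat proteins, which process organelle RNA, 3 of 40 tested members were called higher and 0 lower. Of chromatin modifiers, 4 of 84 tested members were called higher and 1 lower, and the median log2 change was 0.81. CHR4 (Pp1s223_99V6), a chromatin remodeller, went from 0 to 127 tags, and HDA3 (Pp1s7_389V6), a nucleolar histone deacetylase, fell from 225 to 39 (5.46-fold, 3.87 to 7.88). Of DNA repair genes, 5 of 50 tested members were called higher and 5 lower. PHR2 (Pp1s43_21V6), a photolyase-related gene, fell 9.52-fold (6.49 to 14.5). Of cytochrome P450 and phenylpropanoid enzymes, 8 of 60 tested members were called higher and 4 lower. CYP710A1 (Pp1s22_283V6), the sterol desaturase that makes stigmasterol, had 37, 0, 0 and 472 tags at 0, 24, 48 and 72 h (at least 166-fold higher in the last step), and 4CL3 (Pp1s71_170V6), which activates coumaric acid, went from 0 to 233.

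A small set of genes was seen in only 1 of the 2 libraries compared, whatever their tags at 0 and 24 h. With 0 tags at 48 h and at least 100 at 72 h there were 43 genes, and with the reverse there were 39. Of these, 7 and 8 genes had no Arabidopsis match. Beside EXPA14 and the EXPB3 genes, the second set held a gene for a CAP family secreted protein, Pp1s297_72V6 (427 and 0 tags), and YLMG2 (Pp1s452_10V6, 339 and 0 tags), a plastid membrane protein. Among the largest rises was HOT5 (Pp1s506_15V6), the S-nitrosoglutathione reductase, with 92, 18, 2 and 1024 tags at 0, 24, 48 and 72 h (541-fold in the last step, 149 to 4475). Among the largest falls were an alpha/beta-hydrolase gene, Pp1s241_102V6, with 3775 and 22 tags (162-fold, 107 to 259), and a glyoxalase I family gene, Pp1s323_51V6, with 1502 and 6 tags (237-fold, 109 to 646).

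Gene copies with the same Arabidopsis match did not always move together. Of 2601 Arabidopsis genes matched by 2 or more tested moss genes, 58 had members called in both directions, 411 had members called higher only and 378 lower only. The 58 include the matches of PCK1, HSC70-1, LPD1, OPR2, TIM, SULTR1;1 and 4CL3 named above. FAD6, the plastid desaturase, was at 0 and 117 tags for Pp1s81_78V6 (at least 41.2-fold higher) and at 688 and 17 for Pp1s246_57V6 (38.3-fold lower, 23.7 to 66.1). HRS1, a histidyl-tRNA synthetase, rose 29.1-fold (22.5 to 38.2) for Pp1s407_7V6 and fell 39.7-fold (15.2 to 148) for Pp1s38_401V6. XTH9 rose for Pp1s309_36V6, as given above, and went from 106 to 0 tags for Pp1s346_19V6. Among GDSL lipases, Pp1s175_94V6 had 4 and 235 tags and Pp1s570_2V6 had 105 and 0 tags. Tags that fitted more than 1 gene had been removed before deposition, so near-identical copies were counted only where they differ, and values of single copies are uncertain to that extent.

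The earlier libraries show where the t-48 cells stood. Of the 969 genes called higher, 674 (69.6%) had their lowest level of all 4 libraries at 48 h, and of the 901 called lower, 788 (87.5%) had their highest level there. The t-48 library took part in the choice of these genes, so the counts are a description, beside 27.6% and 28.9% of the tested genes that were not called. RBCS1A (Pp1s109_145V6) stood at 165, 62.9, 3343 and 6.48 CPM at 0, 24, 48 and 72 h, and LHCB2.1 (Pp1s19_13V6) at 95.6, 62.1, 7176 and 126. Both were thus abundant at 48 h alone. CSD1 (Pp1s44_277V6) stood at 707, 1981, 533 and 17757 and PCK1 (Pp1s133_10V6) at 662, 575, 101 and 2494, lowest at 48 h and highest at 72 h. ACP1 (Pp1s69_154V6) was at 173, 114, 3609 and 111 and POP2 (Pp1s355_46V6) at 1537, 2774, 1229 and 11864.

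**Figure D5:**
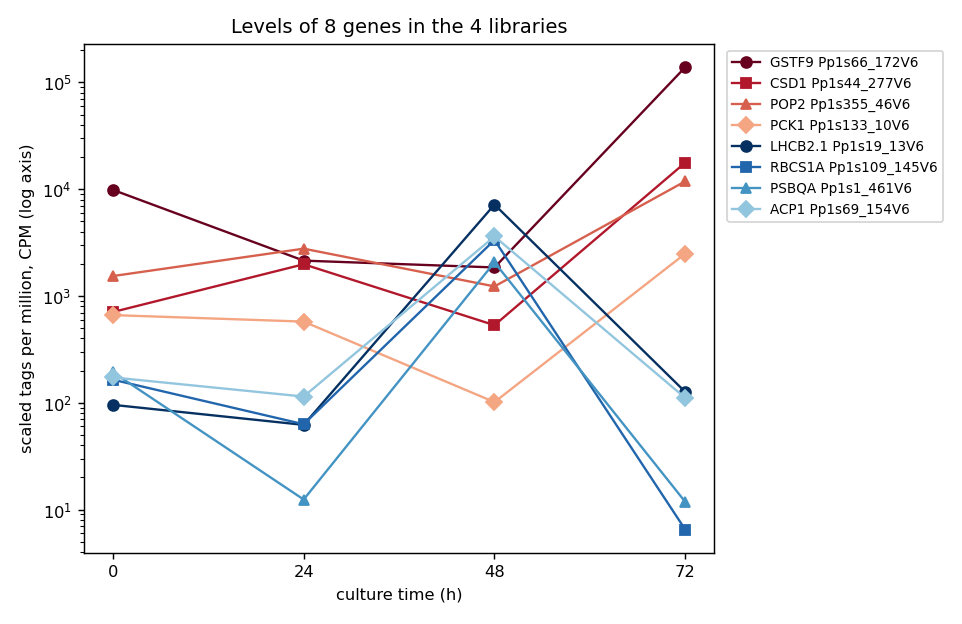
CPM (log axis) of 8 genes against culture time in hours, 1 library a point, with red lines for 4 genes called higher and blue lines for 4 genes called lower between 48 and 72 h. The blue genes peak at 48 h, at 2065 to 7176 CPM, and the red genes have their lowest value there.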

How the data were processed

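Gene tables of 4 DGEP libraries were used. The authors counted CATG-anchored tags per annotated moss gene after adaptor tags, low-quality tags and tags seen only 1 time had been discarded, mapped them with Bowtie (named in the submitters' processing notes), and kept only tags that fitted 1 gene, so the deposited counts are whole numbers and near-identical genes are incompletely counted. A second column, TPM, was named so per the file headers, but its values are tags per 100000 clean tags, and it was used only to recover the number of clean tags. The libraries held 1750184 to 2445814 gene tags.

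The counts at 72 h and 48 h were compared gene by gene after TMM scaling over all 4 libraries (edgeR 4.0.16, R 4.3.3). Genes with 10 or more tags over both libraries were tested. A call needed a 4-fold difference and 100 tags in the higher library. Intervals are exact conditional intervals at 95% for folds and Wilson intervals for shares, and they cover counting error only. A count of 0 was set to 3 for a bound, and 0.5 was added for log2 values. With 1 library a side there is no replicate check. The steps were run on simulated counts with balanced changes of known size and counting error only. That run does not cover the spread between cultures or a shift in composition like that of the t-72 library. Alternatives were total gene tags, clean tags, DESeq2 1.42.0 size factors, other tag and fold thresholds, and edgeR's exact test at an assumed spread.

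The 39 lists were drawn by words in the Arabidopsis symbols and descriptions that the files pair with the genes. Members and lists were chosen with earlier results of these data known, and some word patterns were corrected on the gene names, a few of them after values had been seen. Named are, per list and direction, up to 3 called genes ranked by the interval end nearest to 1, the 10 highest rises and the 10 largest falls of all annotated genes, the 10 genes with most tags in each library, 5 Arabidopsis matches with calls in both directions, and the genes measured by qRT-PCR in the study. Called genes outside this rule are not named. No coordinates or sequences are given.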

Additional observations from a re-analysis of the deposited data

How the results depend on the processing

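The counts of called genes depended most on the thresholds. With a 2-fold threshold 1591 genes were higher and 1564 lower, with an 8-fold threshold 560 and 458, and with 200 tags in the higher library 652 and 545. The exact test with an assumed coefficient of variation of 0.4 between cultures gave 576 and 467. Over the scalings tried, 779 genes stayed called higher and 899 lower, and 214 of the 219 named called genes tested here kept their call. The exceptions, all with total gene tags, were LHCB2.2 (Pp1s23_96V6, 1.87), AGT (Pp1s369_6V6, 1.92), FC2 (Pp1s371_25V6, 1.89), PEX11D (Pp1s433_22V6, 1.68) and PEX14 (Pp1s314_33V6, 1.66), given as log2 changes, while LHCB5 (Pp1s6_312V6) became called at -2.02. The balance of calls turned with total gene tags in 6 lists, from 6 higher and 3 lower to 4 and 8 for LEA proteins, from 22 and 14 to 15 and 20 for vesicle trafficking, from 17 and 16 to 15 and 22 for lipids, from 36 and 28 to 32 and 33 for transporters, from 23 and 16 to 17 and 18 for other transcription factors and from 17 and 15 to 15 and 16 for nitrogen, sulphur and amino acids.

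The median log2 change of all genes moved to -0.38 with total gene tags and to -0.24 with clean tags, and the medians of these lists changed sign. With total gene tags and with clean tags they were, in this order, -0.35 and -0.21 for LEA proteins, -0.30 and -0.17 for cytochrome P450 and phenylpropanoid enzymes, -0.19 and -0.049 for ubiquitin, RING and F-box proteins, -0.20 and -0.061 for other transcription factors, -0.28 and -0.15 for hormones, -0.38 and -0.24 for calcium, MAP kinase and SnRK signalling, -0.33 and -0.19 for transporters, -0.24 and -0.099 for RNA splicing and RNA-binding proteins, -0.37 and -0.23 for nitrogen, sulphur and amino acid metabolism, and -0.27 and -0.13 for the peroxisome. With total gene tags alone they were -0.039 for heat shock proteins, -0.049 for the proteasome and -0.053 for AP2/ERF factors. DESeq2 size factors turned only the calcium list, to -0.0047.

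Leaving out a replicate was not possible with 1 library a side, and no paired analysis was possible because each group holds 1 library. The intervals cover counting error, and the spread between cultures is unknown. Genes under 100 tags at both times, among them most cell cycle genes, could not be called at this depth.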

Other observations

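Genes without an Arabidopsis match were called about as often as the rest. Of 1528 tested, 6.81% were called higher and 7.0% lower, against 7.78% and 7.14% of the 11120 genes with a match. They held 11.2% of the tags at 48 h and 12.4% at 72 h. The most abundant of them, Pp1s350_5V6, had 3205, 14620, 26253 and 38676 tags at 0, 24, 48 and 72 h and was 1.56-fold (1.53 to 1.58) higher in the last step, short of the call. Pp1s52_261V6 had 548, 25237, 3613 and 33573 tags, and its last step was 9.82-fold (9.49 to 10.2).

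The second most abundant gene at 72 h, Pp1s181_57V6, matches an Arabidopsis gene without a description. It had 4640, 14211, 4738 and 156638 tags in the same order, a 34.9-fold (34 to 36) rise over the last step. Its tested companion with the same match, Pp1s433_8V6, had 872 and 33 tags at 48 and 72 h and fell 25-fold (17.7 to 36.5). Among the largest changes outside all lists, a DUF716 gene (Pp1s59_40V6) had 0 and 289 tags (at least 102-fold higher), and a gene for a pyridoxal phosphate-dependent transferase (Pp1s102_49V6) had 408 and 0 tags (at least 129-fold lower).

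FC2 (Pp1s371_25V6), a ferrochelatase, which puts iron into haem, rose 4.89-fold (4.0 to 6.01). MAPR3 (Pp1s97_92V6), a membrane steroid-binding protein, had 229 and 141 tags and a difference of 1.54-fold (1.24 to 1.91). The potassium transporter gene KT1 measured by qRT-PCR had no tag in either library.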
